A study of Mus musculus with 24 samples.

Results

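The 31 genes described here are p53 and its transcriptional targets, taken by gene symbol from a list of genes known to respond to p53. All 31 were found among the 24825 rows that each library lists, and 30 of them passed the filter on low values that 12640 of the rows passed (a value of at least 1 in at least 3 libraries). RNA-seq was made from ingSVF cells, the stromal vascular fraction of mouse inguinal white adipose tissue, which holds adipocyte precursors among other cells. The design asks what changes in these cells when Nfia is targeted, and whether full-length NFIA or a mutant form restores it. There were 4 cell types at day 0 and at day 7 of differentiation with 3 libraries in each of the 8 groups, 24 libraries in all. According to the study's methods, every cell type came from Nfia flox/flox mice and was immortalised with SV40 large T antigen, so the ctrl cells carry both as well. The ctrl cells received an empty retrovirus and the Cre cells a retrovirus that expresses Cre recombinase. Full-length NFIA with a FLAG tag was introduced into the Cre + NFIA cells, at Nfia levels above ctrl that are given below. The Cre + NFIA Δpro#3 cells received a FLAG-tagged NFIA without a C-terminal proline-rich segment, here called the Δpro#3 cells. Day 0 cells were confluent and not yet induced, and day 7 cells had received a thermogenic adipogenic cocktail that begins with dexamethasone and keeps insulin, T3 and rosiglitazone. The mutant founders were bred to C57BL/6J mice, age and sex are not given in the sources used here, and nothing in them says that the replicates were separate cultures or infections, so the p-values measure only the spread between these libraries. In such bulk RNA, a change in the proportion of cell types and a change in RNA per cell cannot be told apart.

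p53 is a transcription factor that is stabilised by DNA damage and other stress and then induces genes for cell-cycle arrest, apoptosis, DNA repair and metabolic adjustment. Its own target Mdm2 encodes the ubiquitin ligase that marks p53 for degradation, a negative feedback loop. SV40 large T antigen binds p53 and the retinoblastoma proteins, which is how it immortalises cells, and mRNA levels do not show how much active p53 the cells hold. Many of these genes also respond to other signals, among them glucocorticoid, the integrated stress response and growth factors.

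Library totals were 7.73 to 14.62 M reads (M, 1000000). The targeted gene did not check the Cre label. Only exon 2 of Nfia is floxed, so reads over the whole gene need not fall with its deletion. Gene-level Nfia was at 5.34 to 6.81 FPKM in the day 0 libraries labelled Cre and at 6.23 to 6.75 FPKM in ctrl, and at 9.49 to 10.7 against 9.15 to 9.81 FPKM at day 7, and directions below rest on that label. FPKM scales a gene's fragments by its length in kilobases and by the library's total in units of 1000000. In Cre + NFIA, gene-level Nfia was at 69.68 to 74.91 FPKM at day 0 and at 83.87 to 97.13 at day 7. In Δpro#3 it was at 59.67 to 61.69 and 94.98 to 111.3 FPKM. Cre + NFIA exceeded ctrl by 3.30 at day 0 and 3.11 at day 7 on the log2 scale. Comparisons with either cell type therefore concern Nfia far above its ctrl level, not a return to that level. The summed FPKM of 12 adipocyte markers such as Adipoq, Plin1 and Fabp4 was 102.8 to 138.7 at day 0. At day 7 it was 23740 to 27530 in ctrl, 22650 to 23040 in Cre + NFIA, 4760 to 10170 in libraries labelled Cre and 927.5 to 2317 in Δpro#3. The sum of 8 precursor and fibroblast markers ran the other way at day 7, at 903.2 to 988, 813.9 to 910.6, 1886 to 2165 and 2059 to 2428 in the same order, after 2947 to 3397 at day 0. These sums moved with most of the day 7 results below, and their part in them was not tested. Summed endothelial, macrophage and leukocyte, mesothelial and skeletal muscle markers stayed at or below 10.2, 13.6, 8.69 and 6.43 FPKM. FPKM were also divided by median-of-ratios size factors, called ratio-based size factors below. At day 7 this lowered the median log2 change over all 12640 genes by 0.112 for libraries labelled Cre against ctrl, from 0.091 to -0.021. Its shift at day 7 was -0.104 for Δpro#3 against Cre + NFIA and 0.093 for Cre + NFIA against libraries labelled Cre. Small changes in libraries labelled Cre against ctrl at day 7 are given with this scaling too.

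The members spanned the range of expression. Averaged over the 24 libraries, Cdkn1a was at 235.5 FPKM, above 98.03% of the genes tested, and was followed by Phlda3 at 137.8, Bax at 133.4, Trp53 at 97.7, Mdm2 at 83.6 and Ccng1 at 75.1 FPKM. The lowest of the 30 tested were Tigar at 3.92, Pmaip1 at 2.76 and Rrm2b at 2.70 FPKM. Perp, which encodes a tetraspan protein of desmosomes, was covered by no more than 4 reads a library, at 0 to 0.191 FPKM. It did not pass the filter and was not tested.

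**Figure D1:**
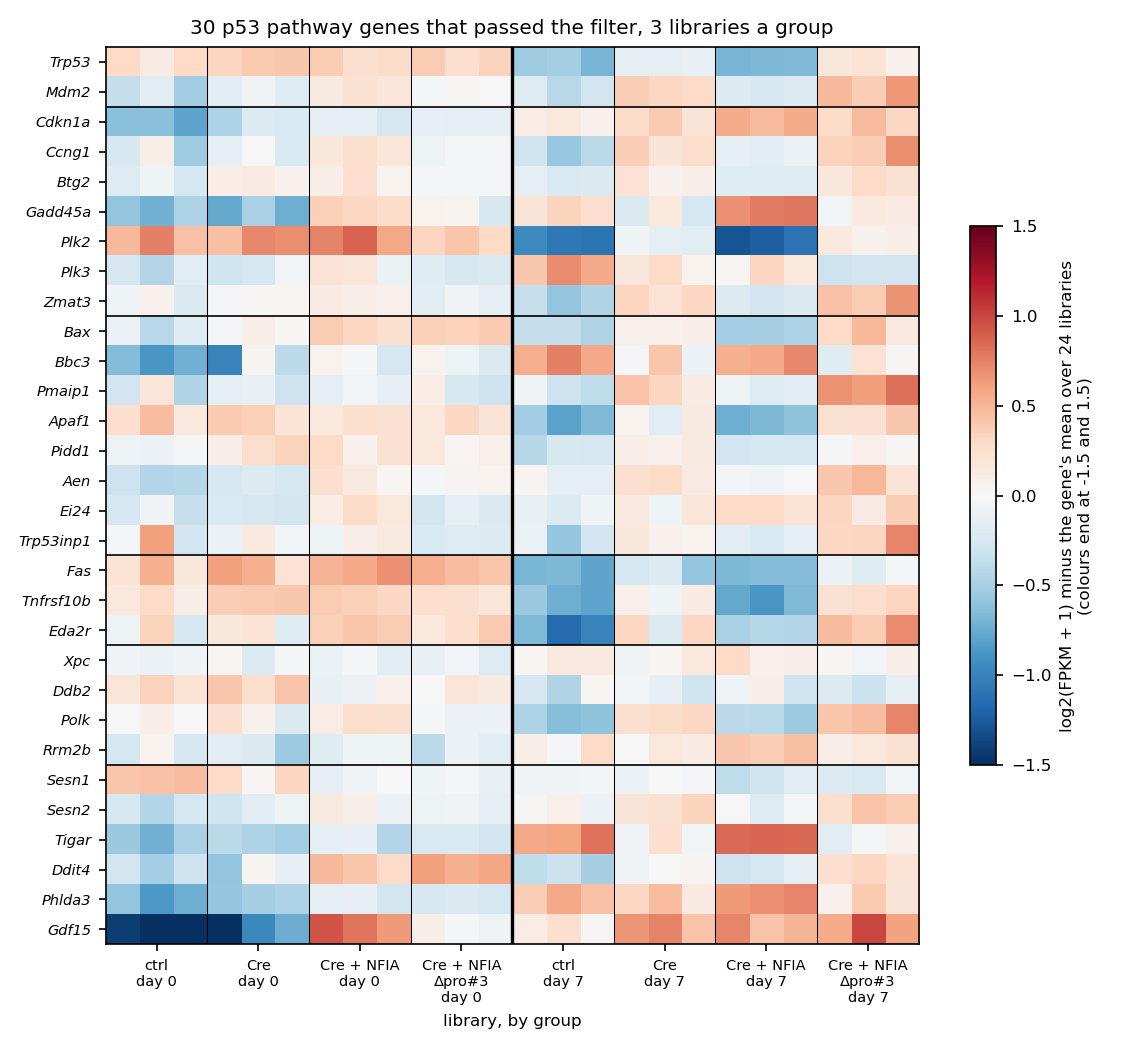
Heat map of the 30 members that passed the filter (rows, by role) in the 24 libraries (columns, 3 a group); colour is log2(FPKM + 1) minus the gene's mean over all libraries. At day 7 most rows are redder in libraries labelled Cre and in Δpro#3 than in ctrl and Cre + NFIA, while Tigar, Bbc3 and Gadd45a are bluer there, and Gdf15 is lowest in ctrl and libraries labelled Cre at day 0.

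The genome sequence near these genes was searched for full p53 sites, since such sites are what the p53 protein binds. A full site was taken as 2 adjoining decamers, each made of 3 purines, C, 2 bases that are A or T, G and 3 pyrimidines, with at most 1 mismatch over the 20 bases, within 5 kb of the annotated gene start on either strand (NCBIM37, GENCODE vM1). The decamer reads alike on both strands, and no other motif was searched. Of 29 members with a position in that annotation, 7 held such a site (24.1%), as did 373 of 10784 tested protein-coding genes (3.46%). A site without mismatch was found near 2 members (6.9%) and near 0.26% of those genes. The genes were listed because they are known p53 targets, so the share near members describes that choice. The site nearest each gene start is shown on the gene's strand, with the central 4 bases of each decamer in capitals.
Cdkn1a, chr17:29227873-29227892, 51 bases before the gene start, 1 mismatch: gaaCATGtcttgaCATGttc
Ccng1, chr11:40568964-40568983, 170 bases before the gene start, 1 mismatch: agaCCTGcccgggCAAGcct
Mdm2, chr10:117148726-117148745, 931 bases before the gene start, 1 mismatch: gggCAATtccgggCAAGtcc
Eda2r, chrX:94572030-94572049, in an intron 506 bases after the start, 1 mismatch: gaaTATGcccggaCTTGtcc
Gdf15, chr8:73155865-73155884, in an exon 471 bases after the start, 1 mismatch: tgaCTTGcctgaaCTTGcct
Zmat3, chr3:32263253-32263272, in an intron 1328 bases after the start, no mismatch: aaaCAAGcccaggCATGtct
Ddit4, chr10:59411250-59411269, past the gene's end and 3249 bases after its start, no mismatch: agaCTTGcctggaCTAGtct
Ccng1, Zmat3 and Ddit4 each held 1 more site within 5 kb. At day 7, 7 of these 7 members and 13 of the 21 other tested members with a position passed as higher in libraries labelled Cre than in ctrl, where 36.1% of all genes did, and the Cdkn1a call among them was lost with other size factors, as given with its values. In Cre + NFIA against libraries labelled Cre 1 of the 7 was higher (27.0% of all genes) and 5 lower (35.9%), against 4 and 12 of the 21. In Δpro#3 against Cre + NFIA 5 were higher (40.4%) and 1 lower (28.9%), against 12 and 5. These counts are a description, with no test, and a match does not show that p53 is bound there.

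At day 7, most members were higher in libraries labelled Cre than in ctrl. With limma at an adjusted p under 0.05, called passing here, 25 of the 30 members passed, 21 higher and 4 lower, where 58.8% of all genes tested passed, 36.1% higher and 22.7% lower. The median log2 fold change was 0.38 over the members and 0.09 over all genes tested. With ratio-based size factors 17 members were higher and 5 lower. The share of higher genes among all genes that passed moved from 61.4% to 46.3%. The calls of Cdkn1a, Aen, Ei24 and Sesn2 were lost under that scaling.

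The direction was opposite where full-length NFIA was added. In Cre + NFIA against libraries labelled Cre at day 7, 24 members passed (63.0% of all genes), 6 higher (27.0%) and 18 lower (35.9%), with a median of -0.29 over the members and -0.06 over all genes. With ratio-based size factors the split was 7 higher and 14 lower. The share of higher genes among all genes that passed moved from 43.0% to 53.7%. Both comparisons use the same libraries labelled Cre, with opposite sign, so each is given by its own values and no overlap between them is read.

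In Δpro#3 against libraries labelled Cre at day 7, 6 members passed (17.7% of all genes), 5 higher (7.70%) and 1 lower (10.0%), with a median of 0.18 over the members and 0.02 over all genes. Without Δpro#3 replicate 1 there were 3, and with quantile normalization 11, 10 higher and 1 lower, as also 11 with voom on recovered reads. Pmaip1, Trp53, Ddit4, Bax and Plk2 were higher, at 0.42, 0.27, 0.26, 0.23 and 0.22, and Plk3 lower, at -0.46. The Ddit4 call was lost without Cre replicate 1 (limma adjusted p = 0.0582), and that of Bax on leaving out any of 5 libraries or with ratio-based size factors (0.103). In Δpro#3 against Cre + NFIA, which compares both forms of the protein directly, 25 members passed (69.2%), 18 higher (40.4%) and 7 lower (28.9%), with a median of 0.42 over the members and 0.10 over all genes. With ratio-based size factors 18 were higher and 8 lower. Higher genes made up 58.3% of all genes that passed as deposited and 48.5% with that scaling. In FPKM as deposited, the largest rises in Δpro#3 against Cre + NFIA were Plk2, Tnfrsf10b, Polk and Eda2r, at 1.32, 1.04, 0.99 and 0.97. The largest falls were Tigar, Gadd45a, Bbc3 and Phlda3, at -0.91, -0.67, -0.59 and -0.47, followed by Plk3, also at -0.47. Trp53 and Mdm2 were higher by 0.83 and 0.72 (limma adjusted p = 7.94e-08 and 2.67e-06). Cdkn1a was lower, at -0.17 (limma adjusted p = 0.0363), which reversed to 0.09 with quantile normalization (limma adjusted p = 0.193). In Cre + NFIA against ctrl 8 members passed (18.0%), 6 higher (8.81%) and 2 lower (9.15%), and with ratio-based size factors 4 were higher and 3 lower. Those higher included Gadd45a at 0.49, Eda2r at 0.49, Gdf15 at 0.44 and Cdkn1a at 0.42, those lower were Plk3 at -0.39 and Sesn1 at -0.23, and Trp53 did not pass (-0.10, limma adjusted p = 0.263). Of the 30 members, 3 passed without Cre + NFIA replicate 1, 4 without ctrl replicate 2 and 5 without ctrl replicate 3 or Cre + NFIA replicate 2. Taking the cell types in pairs, all 6 day 7 libraries of Cre and Δpro#3 lay above all 6 of ctrl and Cre + NFIA for 18 members (30.3% of all genes tested) and below them for Gadd45a, Bbc3 and Tigar (19.2%). The other 9 tested members overlapped. This count used FPKM as deposited and was not redone with ratio-based size factors, so it can depend on the scaling. Those factors were 0.926 to 0.976 in day 7 libraries of ctrl and Cre + NFIA. In those of Cre and Δpro#3 they were 1.028 to 1.072. No member both passed and reached a 3-fold difference between cell types at day 7. Of all genes, 1.51% did so in libraries labelled Cre against ctrl, 3.63% in Cre + NFIA and 0.625% in Δpro#3 against libraries labelled Cre, 6.92% in Δpro#3 against Cre + NFIA and 0.301% in Cre + NFIA against ctrl.

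**Figure D2:**
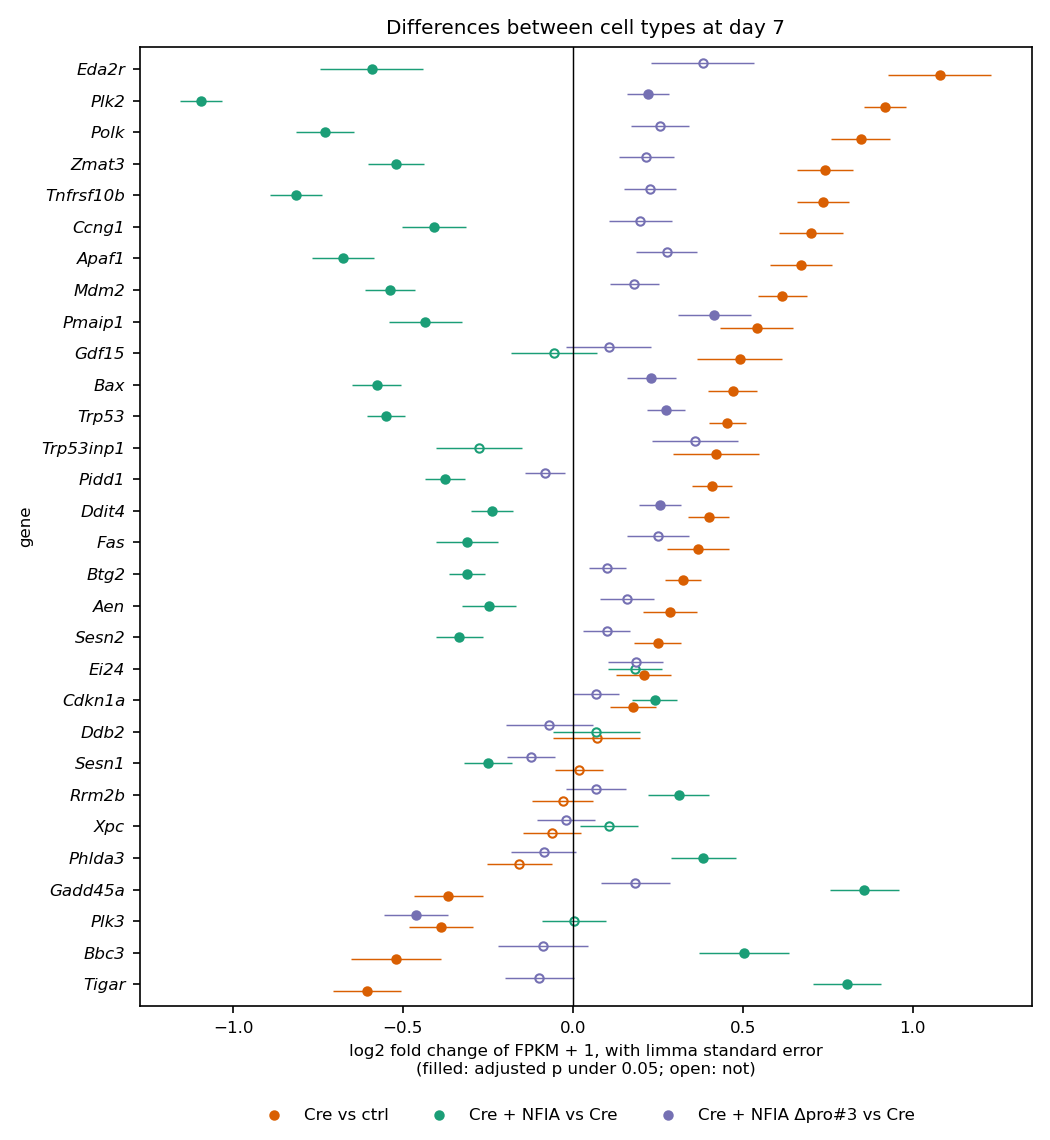
Log2 fold changes of FPKM + 1 (horizontal axis, with limma standard errors) at day 7 for the 30 tested members (vertical axis), sorted by Cre against ctrl; filled points passed. From Eda2r at 1.08 down to Cdkn1a at 0.18 the points of Cre against ctrl lie above zero and those of Cre + NFIA against Cre mostly below it, and 6 points of Δpro#3 against Cre are filled.

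Trp53, the gene of p53 itself, lost part of its mRNA during differentiation, and lost less of it in libraries labelled Cre and in Δpro#3. Its levels at day 0 were 117, 103 and 116 FPKM in ctrl, 119, 124 and 125 in libraries labelled Cre, 123, 111 and 114 in Cre + NFIA and 123, 113 and 119.7 in Δpro#3. These ranges overlapped, apart from those of ctrl and libraries labelled Cre, and no day 0 difference passed. Day 7 libraries gave 64.7, 65.7 and 57.9 FPKM in ctrl, 86.01, 85.9 and 86.9 in libraries labelled Cre, 57.9, 58.5 and 59.3 in Cre + NFIA and 106, 109 and 98.7 in Δpro#3. The day 7 ranges of ctrl and Cre + NFIA overlapped, libraries labelled Cre lay above both, and Δpro#3 lay above those. Against ctrl, the log2 fold change of libraries labelled Cre was 0.45 (SE 0.055, limma adjusted p = 2.56e-05). From libraries labelled Cre it fell by 0.55 in Cre + NFIA (limma adjusted p = 3.71e-06) and was 0.27 higher in Δpro#3 (limma adjusted p = 0.00538). From day 0 to day 7 Trp53 fell by 0.82 in ctrl, 0.50 in libraries labelled Cre, 0.97 in Cre + NFIA and 0.18 in Δpro#3 (SE 0.057 each, limma adjusted p = 0.0168 for the last and at most 2.61e-07 for the others). The last call was lost without Δpro#3 replicate 3 of day 7 (limma adjusted p = 0.0975), day 0 replicate 1 (0.0755) or day 0 replicate 3 (0.0519). The difference between the days was itself smaller in libraries labelled Cre than in ctrl by 0.32 (limma adjusted p = 0.00234), a call lost with ratio-based size factors (0.104).

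Mdm2 was at 71.7, 61.2 and 66.9 FPKM in ctrl at day 7 and at 70.9, 68.8 and 71.04 in Cre + NFIA. Levels were 106, 101.3 and 100.2 FPKM in libraries labelled Cre and 115, 106 and 129 in Δpro#3. The latter pair lay above the former in all libraries. It rose by 0.62 in libraries labelled Cre against ctrl (SE 0.073, limma adjusted p = 2.12e-05), was lower in Cre + NFIA than in libraries labelled Cre (-0.54, limma adjusted p = 4.44e-05) and did not pass in Δpro#3 against libraries labelled Cre (0.18, limma adjusted p = 0.114) or in Cre + NFIA against ctrl (0.08, limma adjusted p = 0.505). Unlike Trp53, Mdm2 rose from day 0 to day 7 in libraries labelled Cre (0.46, SE 0.078) and in Δpro#3 (0.51). It fell in Cre + NFIA (-0.40, limma adjusted p = 0.000113) and was at 0.05 in ctrl (limma adjusted p = 0.557). The day 0 levels were 63.4, 73.3 and 56.5 FPKM in ctrl, 72.4, 78.9 and 71.3 in libraries labelled Cre, 89.9, 95.98 and 92.9 in Cre + NFIA and 80.1, 82.5 and 81.5 in Δpro#3, where Cre + NFIA was highest.

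**Figure D3:**
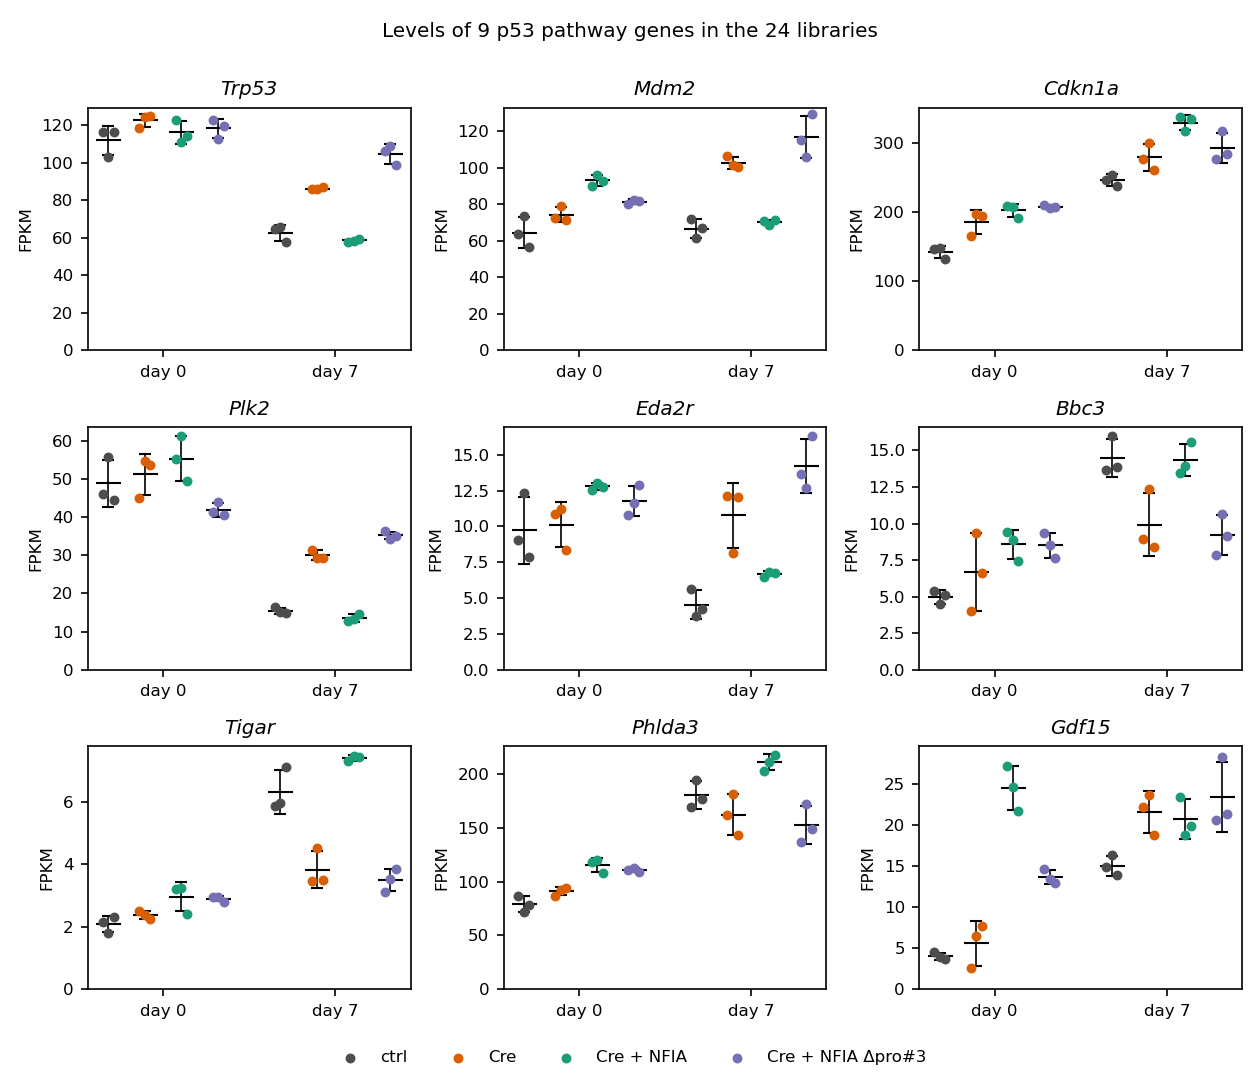
FPKM of 9 members (vertical axes, from 0) in each library at day 0 and day 7, coloured by cell type; each point is a library and the bars are the mean and SD of 3. Trp53, Mdm2, Plk2 and Eda2r are higher in libraries labelled Cre and Δpro#3 at day 7, Tigar and Bbc3 are lower there, Cdkn1a is at 238 FPKM or more in every day 7 library, and Gdf15 at day 0 is at 2.55 to 7.77 FPKM in ctrl and libraries labelled Cre and at 12.98 to 27.3 in the others.

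Cdkn1a, which encodes the cyclin-dependent kinase inhibitor p21, was higher in libraries labelled Cre than in ctrl at day 7 and higher again in Cre + NFIA. Its levels at day 7 were 247, 254 and 238 FPKM in ctrl, 276, 299.7 and 261 in libraries labelled Cre, 337, 316 and 335 in Cre + NFIA and 277, 317 and 284 in Δpro#3. At day 0 Cdkn1a had been at 147, 147 and 131 FPKM in ctrl, 165, 198 and 194 in libraries labelled Cre, 209, 207 and 191 in Cre + NFIA and 209.5, 205 and 208 in Δpro#3. Every day 7 library lay above every day 0 library, and at day 7 all Cre + NFIA libraries lay above ctrl and libraries labelled Cre, with the lowest of them level with the highest of Δpro#3. It rose from day 0 to day 7 by 0.79 on the log2 scale in ctrl, 0.59 in libraries labelled Cre, 0.70 in Cre + NFIA and 0.49 in Δpro#3 (SE 0.069 each, limma adjusted p at most 7.36e-06). The day 7 level was higher in libraries labelled Cre than in ctrl by 0.18 (SE 0.067, limma adjusted p = 0.0374). With ratio-based size factors this was 0.04 (limma adjusted p = 0.687), and the call was also lost without ctrl replicates 1 (0.0704) or 3 (0.116) or without Cre replicates 1 (0.0737) or 2 (0.139). It was 0.24 higher in Cre + NFIA than in libraries labelled Cre (limma adjusted p = 0.00753), which quantile normalization moved to 0.03 (0.699). In Δpro#3 against libraries labelled Cre it was at 0.07 (limma adjusted p = 0.538), and in Cre + NFIA against ctrl at 0.42 (SE 0.067, limma adjusted p = 0.00134).

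Plk2, a stress-induced polo-like kinase, had the largest fall of the members during differentiation in ctrl and in Cre + NFIA. Day 0 libraries gave 46.1, 55.7 and 44.6 FPKM in ctrl, 45.1, 54.7 and 53.7 in libraries labelled Cre, 55.2, 61.2 and 49.4 in Cre + NFIA and 41.3, 43.8 and 40.5 in Δpro#3. The day 7 levels were 16.4, 15.1 and 14.8 FPKM in ctrl, 31.5, 29.4 and 29.2 in libraries labelled Cre, 12.7, 13.3 and 14.6 in Cre + NFIA and 36.3, 34.3 and 35.01 in Δpro#3. At day 7 the ranges of no cell types overlapped, with Δpro#3 highest and Cre + NFIA lowest. It was 0.92 higher in libraries labelled Cre than in ctrl (SE 0.062, limma adjusted p = 6.40e-07) and 1.32 higher in Δpro#3 than in Cre + NFIA (limma adjusted p = 7.48e-09), the largest difference of any member at day 7. From libraries labelled Cre it fell by 1.09 in Cre + NFIA (limma adjusted p = 4.86e-08) and was 0.22 higher in Δpro#3 (limma adjusted p = 0.0282), a call lost without Cre replicates 2 (0.0939) or 3 (0.0679) or Δpro#3 replicates 1 (0.106) or 3 (0.0564). Its fall from day 0 to day 7 was 1.59 in ctrl, 0.74 in libraries labelled Cre and 1.95 in Cre + NFIA (limma adjusted p at most 3.60e-07). In Δpro#3 it was -0.24 (limma adjusted p = 0.0285), a call lost on leaving out any of 4 libraries, with limma adjusted p up to 0.101 without day 0 replicate 2.

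Plk3, the related kinase, ran differently. Its levels at day 7 were 11.3, 14.1 and 12.8 FPKM in ctrl, 9.43, 10.4 and 8.64 in libraries labelled Cre, 8.52, 10.7 and 9.40 in Cre + NFIA and 6.49, 6.61 and 6.70 in Δpro#3. Δpro#3 lay below all other libraries. From ctrl to libraries labelled Cre it fell by 0.39 (limma adjusted p = 0.00375) and by a further 0.46 in Δpro#3 against libraries labelled Cre (limma adjusted p = 0.00605), the only member that passed as lower there. In Cre + NFIA it was also below ctrl (-0.39, limma adjusted p = 0.0154), a call lost without ctrl replicate 2 (0.0565) or Cre + NFIA replicate 1 (0.0676).

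Ccng1 (cyclin G1), Zmat3 (an RNA-binding zinc finger protein) and Btg2 (an antiproliferative cofactor of mRNA deadenylation) moved with Mdm2. Zmat3 was at 14.2, 11.9 and 13.1 FPKM in ctrl, 23.2, 21.4 and 22.9 in libraries labelled Cre, 15.8, 14.8 and 15.6 in Cre + NFIA and 25.2, 24.2 and 29.8 in Δpro#3 at day 7. Against ctrl it was 0.74 higher in libraries labelled Cre (limma adjusted p = 1.21e-05), Ccng1 0.70 and Btg2 0.32, and against libraries labelled Cre all were lower in Cre + NFIA, at -0.52, -0.41 and -0.31. Over the 24 libraries Ccng1 was the member most like Mdm2 (Pearson r = 0.95 on log2 values), followed by Zmat3 (0.89), Btg2 (0.86) and Pmaip1 (0.85). The libraries share groups and differentiation state, so these values are descriptive.

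Gadd45a, a stress-induced growth-arrest gene, showed the opposite order at day 7. Levels were 15.3, 17.05 and 16.03 FPKM in ctrl, 11.3, 14.996 and 10.9 in libraries labelled Cre, 22.02, 23.5 and 23.7 in Cre + NFIA and 12.9, 14.9 and 14.6 in Δpro#3. Cre + NFIA lay above every other library, and libraries labelled Cre and Δpro#3 lay below ctrl. From ctrl to libraries labelled Cre it fell by 0.37 (limma adjusted p = 0.00805), rose by 0.86 in Cre + NFIA against libraries labelled Cre (limma adjusted p = 1.41e-05), where no member rose more, and was 0.49 higher in Cre + NFIA than in ctrl (limma adjusted p = 0.00641).

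Among the apoptosis genes, those of the mitochondrial and caspase steps rose in libraries labelled Cre at day 7, apart from Bbc3. Of the 8 tested genes of this role 7 were higher than in ctrl (36.1% of all genes) and 1 lower (22.7%), and in Cre + NFIA against libraries labelled Cre 1 was higher (27.0%) and 5 lower (35.9%). Bax, which forms pores in the mitochondrial membrane, was at 102, 102 and 95.1 FPKM in ctrl, 137, 137 and 139.8 in libraries labelled Cre, 90.9, 91.9 and 93.9 in Cre + NFIA and 160.3, 185 and 144 in Δpro#3. The libraries labelled Cre and Δpro#3 lay above the others, by 0.47 for libraries labelled Cre against ctrl (limma adjusted p = 0.000163). Apaf1, the scaffold on which caspases are activated, was at 9.60, 7.77 and 8.64 FPKM in ctrl, 14.8, 12.7 and 15.7 in libraries labelled Cre, 8.21, 8.56 and 9.07 in Cre + NFIA and 16.8, 16.9 and 19.2 in Δpro#3. It was 0.67 higher in libraries labelled Cre than in ctrl and fell by 0.68 from there in Cre + NFIA (limma adjusted p = 5.81e-05 and 4.04e-05). Pidd1, a caspase-activating death domain protein, Aen, an apoptotic nuclease, and Trp53inp1, a p53 cofactor, were higher against ctrl by 0.41, 0.29 and 0.42. The Trp53inp1 call was lost without ctrl replicate 2 (limma adjusted p = 0.0564). Ei24, a protein of the endoplasmic reticulum, was higher by 0.21, a call lost with ratio-based size factors (limma adjusted p = 0.406) and on leaving out any of 4 libraries (up to 0.148, without Cre replicate 3).

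The pair of genes for BH3-only proteins, Pmaip1 (NOXA) and Bbc3 (PUMA), which trigger the mitochondrial step, went in opposite directions. Pmaip1 was at 2.52, 1.94 and 1.82 FPKM in ctrl at day 7, 3.93, 3.58 and 2.97 in libraries labelled Cre, 2.47, 2.21 and 2.27 in Cre + NFIA and 4.84, 4.64 and 5.46 in Δpro#3. It was 0.54 higher in libraries labelled Cre than in ctrl (limma adjusted p = 0.00102) and had the largest rise of any member in Δpro#3 against libraries labelled Cre (0.42, SE 0.11, limma adjusted p = 0.02). That last call was lost without Cre replicates 2 (0.0509) or 3 (0.06) or Δpro#3 replicates 1 (0.0549) or 3 (0.0658). Bbc3 was at 13.7, 16.01 and 13.8 FPKM in ctrl, 8.95, 12.4 and 8.43 in libraries labelled Cre, 13.5, 13.9 and 15.6 in Cre + NFIA and 7.85, 10.6 and 9.17 in Δpro#3. All libraries of Cre and Δpro#3 lay below all of ctrl and Cre + NFIA. From ctrl to libraries labelled Cre it fell by 0.52 (limma adjusted p = 0.00518) and was 0.50 higher in Cre + NFIA than in libraries labelled Cre (limma adjusted p = 0.00563). From day 0 Bbc3 rose by 1.37 in ctrl (limma adjusted p = 7.83e-07), from 5.39, 4.47 and 5.10 FPKM. In Δpro#3 it was at 0.10 (limma adjusted p = 0.702).

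The 3 receptor genes Fas, Tnfrsf10b and Eda2r were higher in libraries labelled Cre than in ctrl at day 7 (36.1% of all genes). They were lower in Cre + NFIA than in libraries labelled Cre (35.9%). Eda2r, the receptor of ectodysplasin A2, had the largest difference from ctrl of any member. Levels were 5.64, 3.73 and 4.27 FPKM in ctrl, 12.1, 8.15 and 12.05 in libraries labelled Cre, 6.50, 6.84 and 6.77 in Cre + NFIA and 13.7, 12.7 and 16.3 in Δpro#3. At day 0 Eda2r gave 9.02, 12.3 and 7.84 FPKM in ctrl, 10.9, 11.2 and 8.33 in libraries labelled Cre, 12.5, 13.1 and 12.8 in Cre + NFIA and 10.8, 11.7 and 12.9 in Δpro#3, where Cre + NFIA lay above ctrl and libraries labelled Cre. At day 7 ctrl was lowest, Cre + NFIA lay above it, libraries labelled Cre lay above both, and Δpro#3 above those, where the difference did not pass (limma adjusted p = 0.111). Libraries labelled Cre exceeded ctrl by 1.08 on the log2 scale (SE 0.15, limma adjusted p = 8.20e-05), and the value of Cre + NFIA against ctrl was 0.49 (limma adjusted p = 0.0461), a call that leaving out any of 5 libraries ended (up to 0.147, without ctrl replicate 2). Tnfrsf10b, a receptor of TRAIL, was at 14.5, 12.7 and 12.1 FPKM in ctrl, 22.8, 20.8 and 23.7 in libraries labelled Cre, 12.3, 11.4 and 13.3 in Cre + NFIA and 25.5, 26.3 and 27.4 in Δpro#3. It was 0.74 higher in libraries labelled Cre than in ctrl (limma adjusted p = 8.70e-06), fell by 0.81 in Cre + NFIA (limma adjusted p = 2.32e-06) and was 1.04 higher in Δpro#3 than in Cre + NFIA. Fas fell during differentiation in every cell type, by 1.02, 0.80, 1.25 and 0.57 in ctrl, libraries labelled Cre, Cre + NFIA and Δpro#3 (limma adjusted p at most 0.000184). On day 7 Fas was 0.37 higher in libraries labelled Cre than in ctrl.

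The DNA repair genes did not move together. Polk, a translesion DNA polymerase, was at 7.37, 6.43 and 6.56 FPKM in ctrl at day 7, 12.8, 12.9 and 13.3 in libraries labelled Cre, 7.78, 7.68 and 6.89 in Cre + NFIA and 14.3, 14.9 and 18.2 in Δpro#3. Libraries labelled Cre and Δpro#3 lay well above the others, by 0.85 for libraries labelled Cre against ctrl (SE 0.086, limma adjusted p = 6.98e-06) and 0.99 for Δpro#3 against Cre + NFIA. From libraries labelled Cre it fell by 0.73 in Cre + NFIA. Polk fell by 0.61 from day 0 to day 7 in ctrl and by 0.65 in Cre + NFIA and rose by 0.60 in Δpro#3 (limma adjusted p at most 2.40e-05). Xpc and Ddb2, which recognise damage in nucleotide excision repair, did not pass in any of the 5 comparisons between cell types at day 7. Ddb2 levels were 8.63, 7.36 and 10.7 FPKM in ctrl and 10.1, 9.53 and 8.32 in libraries labelled Cre. Rrm2b, a ribonucleotide reductase subunit, was at 2.91, 2.60 and 3.45 FPKM in ctrl, 2.65, 3.08 and 2.95 in libraries labelled Cre and 3.81, 3.70 and 3.98 in Cre + NFIA, 0.31 higher in Cre + NFIA than in libraries labelled Cre (limma adjusted p = 0.009).

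Of the 6 genes of metabolism, growth signalling and stress, 3 were higher (36.1% of all genes) at day 7 in libraries labelled Cre than in ctrl. In that comparison 1, Tigar, was lower (22.7%). Tigar, a phosphatase that lowers glycolytic flux, was at 5.89, 5.97 and 7.14 FPKM in ctrl at day 7, 3.47, 4.52 and 3.49 in libraries labelled Cre, 7.32, 7.49 and 7.43 in Cre + NFIA and 3.12, 3.53 and 3.84 in Δpro#3. Day 0 libraries gave 2.16, 1.80 and 2.30 FPKM in ctrl, 2.51, 2.37 and 2.26 in libraries labelled Cre, 3.21, 3.25 and 2.43 in Cre + NFIA and 2.96, 2.94 and 2.81 in Δpro#3. At day 7 Cre + NFIA was highest, ctrl next, and libraries labelled Cre and Δpro#3 overlapped below both. Tigar rose from day 0 to day 7 by 1.25 in ctrl, 1.09 in Cre + NFIA and 0.51 in libraries labelled Cre (limma adjusted p at most 0.000223). In Δpro#3 it was at 0.20 (limma adjusted p = 0.114). Between cell types at day 7, Tigar fell by 0.61 in libraries labelled Cre against ctrl (SE 0.10, limma adjusted p = 0.000267), was 0.81 higher in Cre + NFIA than in libraries labelled Cre, and fell by 0.91 in Δpro#3 against Cre + NFIA (limma adjusted p = 5.70e-06).

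Phlda3, an inhibitor of Akt, rose from day 0 to day 7 in all 4 cell types, by 1.18 in ctrl, 0.82 in libraries labelled Cre, 0.86 in Cre + NFIA and 0.45 in Δpro#3 (limma adjusted p at most 0.000215). The day 7 levels were 169, 195 and 177 FPKM in ctrl, 162, 181 and 143 in libraries labelled Cre, 203, 211 and 218 in Cre + NFIA and 137, 172 and 149 in Δpro#3, and Cre + NFIA was highest. It was 0.38 higher in Cre + NFIA than in libraries labelled Cre (limma adjusted p = 0.00413), a call lost with quantile normalization (0.13, limma adjusted p = 0.162). Ddit4 (REDD1) and Sesn2, which restrain mTORC1, were 0.40 and 0.25 higher in libraries labelled Cre than in ctrl, and Sesn2 did not pass there with ratio-based size factors (limma adjusted p = 0.211). Sesn1, a relative of Sesn2, gave 9.27, 9.22 and 9.29 FPKM in ctrl and 9.04, 9.65 and 9.49 in libraries labelled Cre (0.02, limma adjusted p = 0.841). Gdf15, a secreted stress cytokine, was at 14.9, 16.4 and 13.9 FPKM in ctrl at day 7, 22.3, 23.7 and 18.8 in libraries labelled Cre, 23.5, 18.8 and 19.9 in Cre + NFIA and 20.6, 28.3 and 21.3 in Δpro#3. The last 3 cell types overlapped, and all 9 of their libraries lay above ctrl. Libraries labelled Cre were 0.49 above ctrl (limma adjusted p = 0.0052), and with all 24 libraries in 1 model this did not pass (0.0528).

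Gdf15 was the member that differed most at day 0, before differentiation. Levels were 4.50, 3.99 and 3.63 FPKM in ctrl, 2.55, 6.49 and 7.77 in libraries labelled Cre, 27.3, 24.7 and 21.8 in Cre + NFIA and 14.6, 13.5 and 12.98 in Δpro#3. All Cre + NFIA libraries lay above all Δpro#3 libraries, and these above the rest. It rose by 2.05 in Cre + NFIA against libraries labelled Cre (SE 0.26, limma adjusted p = 0.000217) and by 1.25 in Δpro#3 (limma adjusted p = 0.00813, or 0.0572 with only those groups in the model), and the difference of Δpro#3 from Cre + NFIA did not pass (-0.79, limma adjusted p = 0.0877). Ddit4 and Gadd45a followed. Ddit4 was at 38.6, 32.7 and 37.5 FPKM in ctrl, 30.9, 48.3 and 42.9 in libraries labelled Cre, 66.1, 62.9 and 57.6 in Cre + NFIA and 72.7, 68.2 and 71.1 in Δpro#3. Gadd45a was at 8.48, 7.67 and 9.36 FPKM in ctrl, 7.40, 9.19 and 7.57 in libraries labelled Cre, 17.3, 16.7 and 16.3 in Cre + NFIA and 13.8, 13.7 and 11.1 in Δpro#3. Against libraries labelled Cre, Ddit4 was 0.62 higher in Cre + NFIA and 0.80 in Δpro#3 (limma adjusted p = 0.00527 and 0.00216), and Gadd45a 0.98 and 0.62 (limma adjusted p = 4.93e-05 and 0.00216). For both genes the libraries with either form of NFIA lay above all ctrl libraries and libraries labelled Cre. Genes of the ATF4 stress response, a list of 12 that holds no member, went the same way against libraries labelled Cre. In Cre + NFIA 10 were higher (14.7% of all genes) and 0 lower (12.9%), and in Δpro#3 4 were higher (9.26%) and 0 lower (9.02%). In Δpro#3 against Cre + NFIA 0 were higher (4.50%) and 6 lower (5.59%). Gdf15 and Gadd45a also had lower means in Δpro#3 than in Cre + NFIA, but Ddit4 had a higher one (70.6 against 62.2 FPKM). The part of the ATF4 genes in the result was not tested.

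Of the 30 members at day 0, 10 passed in Cre + NFIA against libraries labelled Cre (27.6% of all genes tested), 8 higher (14.7%) and 2 lower (12.9%). Besides those above, Ei24 was higher by 0.43, Aen by 0.37, Phlda3 by 0.34, Mdm2 by 0.32 and Bax by 0.29 (limma adjusted p at most 0.0142, or 0.0553 for Bax without Cre + NFIA replicate 1). Ddb2 and Sesn1 were lower, at -0.41 and -0.27, and the Sesn1 call was lost on leaving out any of 4 libraries (limma adjusted p up to 0.0814, without Cre replicate 3). Trp53 and Cdkn1a did not pass (-0.08 and 0.13, limma adjusted p = 0.357 and 0.218). In Δpro#3 against libraries labelled Cre 9 passed (18.3%), 6 higher (9.26%) and 3 lower (9.02%). Bax, Phlda3 and Aen were 0.34, 0.28 and 0.26 higher. The Aen call was lost without Cre replicate 3 (limma adjusted p = 0.0562) or Δpro#3 replicates 2 (0.0685) or 3 (0.0723), and that of Phlda3 without Δpro#3 replicate 2 (0.0536). Sesn1, Ddb2 and Tnfrsf10b were lower, at -0.28, -0.26 and -0.16. The calls of these 3 lower members were each lost on leaving out any of at least 5 of the 6 libraries, and 5 members passed without Cre replicate 3 or Δpro#3 replicate 3 and 4 without Δpro#3 replicate 2. Trp53, Cdkn1a and Mdm2 were at -0.05, 0.16 and 0.13 (limma adjusted p = 0.613, 0.14 and 0.281).

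**Figure D4:**
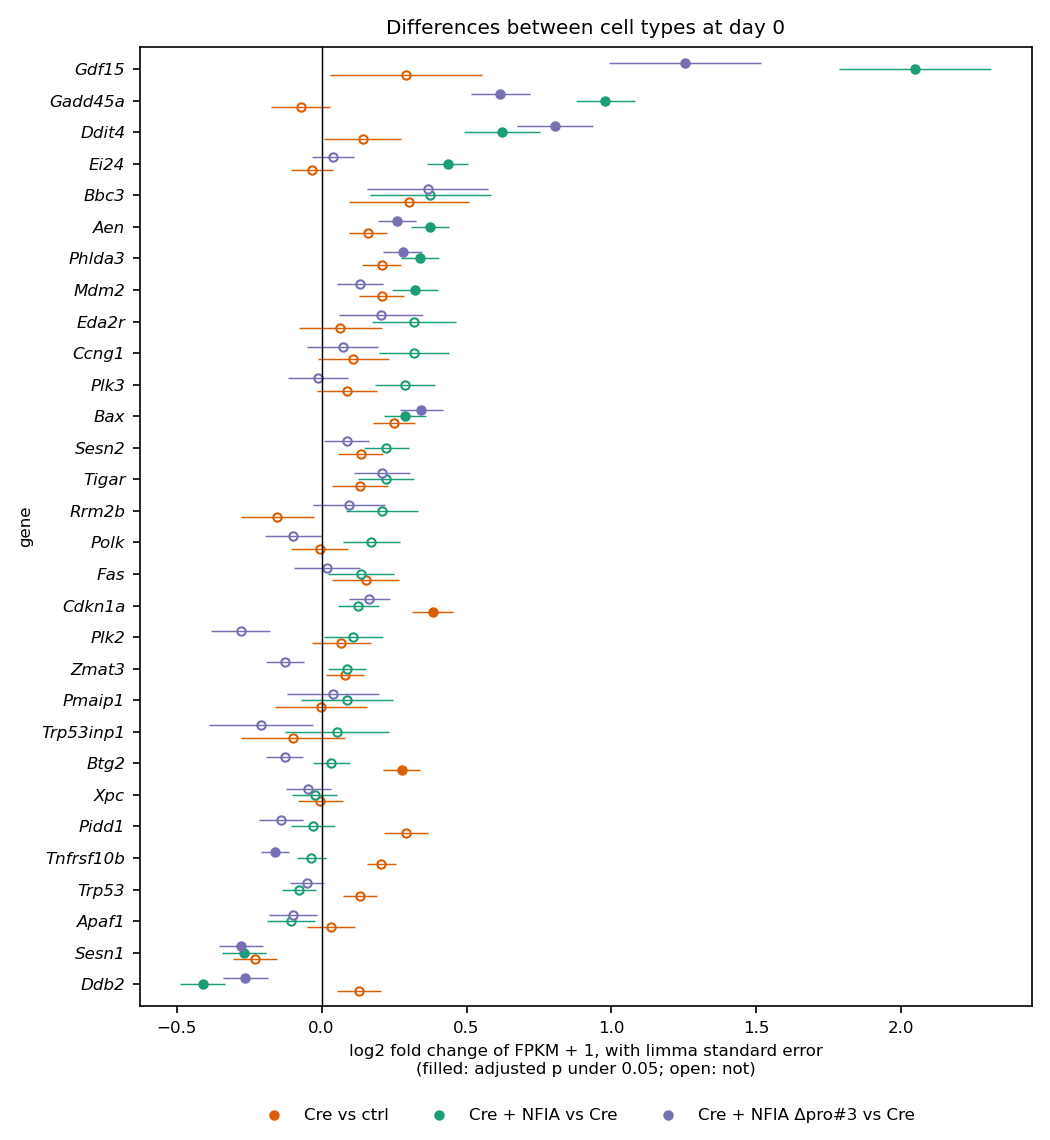
Log2 fold changes of FPKM + 1 (horizontal axis, with limma standard errors) at day 0 for the 30 tested members (vertical axis), sorted by Cre + NFIA against Cre; filled points passed. Gdf15 is at 2.05 and 1.25 with full-length NFIA and Δpro#3, Gadd45a and Ddit4 come next, and in Cre against ctrl the filled points are Cdkn1a and Btg2.

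Libraries labelled Cre and ctrl differed in few members at day 0. Cdkn1a was higher by 0.38 (SE 0.071, limma adjusted p = 0.0196), Btg2 by 0.28 (SE 0.063, limma adjusted p = 0.0421), and no member was lower, so 2 passed (3.33% of all genes), 2 higher (1.63%) and 0 lower (1.70%). Without ctrl replicate 2 there were 4. The Cdkn1a libraries labelled Cre all lay above ctrl, and its call was lost without ctrl replicate 3 (limma adjusted p = 0.0533) or Cre replicates 2 (0.0668) or 3 (0.0725). The Btg2 call was lost on leaving out any of 5 libraries (limma adjusted p up to 0.121, without Cre replicate 2). Trp53 and Mdm2 were at 0.13 and 0.21 (limma adjusted p = 0.23 and 0.17). In Cre + NFIA against ctrl at day 0 19 members passed (33.1%), 17 higher (18.8%) and 2 lower (14.3%). The largest rises were Gdf15 by 2.34, Gadd45a by 0.91, Ddit4 by 0.76 and Bbc3 by 0.68, of which the last was lost on leaving out any of 5 libraries (limma adjusted p up to 0.092, without Cre + NFIA replicate 1). Cdkn1a and Mdm2 rose by 0.51 and 0.53 (limma adjusted p = 0.000335 and 0.000511), Trp53 was at 0.05 (limma adjusted p = 0.517), and Sesn1 and Ddb2 were lower, at -0.50 and -0.28. The Ddb2 call was lost without ctrl replicate 2 (0.0544) or Cre + NFIA replicates 1 (0.0647) or 2 (0.0578). In Δpro#3 against Cre + NFIA 3 members passed (10.1%), 0 higher (4.50%) and 3 lower (5.59%). They were Ei24 at -0.40 (limma adjusted p = 0.00476), Plk2 at -0.39 (0.0365) and Gadd45a at -0.36 (0.0471). The Plk2 call was lost on leaving out any of 5 libraries and the Gadd45a call on leaving out any of 6, so that only Ei24 passed without Cre + NFIA replicates 1 or 2 or any Δpro#3 replicate. With voom on recovered reads 5 members passed, and with only the groups compared in the model 9. Trp53, Cdkn1a and Mdm2 were at 0.03, 0.04 and -0.19 and did not pass.

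The share of members that changed with differentiation, regardless of direction, was close to that of all genes tested in ctrl and Cre + NFIA. By direction, Cre + NFIA departed from all genes, with 53.3% of the members lower against 38.3% and 23.3% higher against 31.8%. Between day 0 and day 7, 22 members passed in ctrl (71.0% of all genes tested), 10 higher (32.9%) and 12 lower (38.1%). In libraries labelled Cre 23 passed (51.7%), 16 higher (30.0%) and 7 lower (21.6%). In Cre + NFIA 23 passed (70.1%), 7 higher (31.8%) and 16 lower (38.3%), and in Δpro#3 19 passed (41.5%), 14 higher (24.5%) and 5 lower (17.0%). The 3 members Cdkn1a, Phlda3 and Rrm2b were higher at day 7 in all 4 cell types (9.88% of all genes tested), and the 3 members Trp53, Plk2 and Fas were lower in all 4 (10.3%), both 10% of the members. The Rrm2b calls in libraries labelled Cre and in Δpro#3 were lost with quantile normalization (limma adjusted p = 0.0663 and 0.115). The 5 members Mdm2, Ccng1, Zmat3, Polk and Aen rose in libraries labelled Cre and in Δpro#3 and fell in Cre + NFIA, as did 2.78% of all genes tested. With ratio-based size factors the calls of Polk in libraries labelled Cre (limma adjusted p = 0.0569) and of Aen in Cre + NFIA (0.254) were lost. In ctrl the largest rises were Gdf15 by 1.67, Bbc3, Tigar and Phlda3, and the largest falls Plk2, Fas, Apaf1 by 0.95 and Eda2r by 0.94. In libraries labelled Cre Gdf15 rose by 1.87, Phlda3 by 0.82, Cdkn1a by 0.59 and Gadd45a by 0.56, and Fas, Plk2, Ddb2 and Trp53 fell, Ddb2 by 0.53. In Cre + NFIA the largest falls were Plk2, Fas, Tnfrsf10b by 1.12 and Trp53, and the largest rises Tigar, Phlda3, Cdkn1a and Bbc3, the last by 0.68. In Δpro#3 the largest rises were Pmaip1 by 0.85, Gdf15 by 0.72, Trp53inp1 by 0.67 and Zmat3 by 0.61, and Fas, Ddb2 (-0.33), Ddit4 (-0.32) and Plk2 fell. The Δpro#3 calls of Gdf15, Ddb2 and Ddit4 were each lost without at least 1 library, such as day 7 replicate 2 for Gdf15 (limma adjusted p = 0.0544) and Ddb2 (0.0762) and day 7 replicate 3 for Ddit4 (0.0632).

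**Figure D5:**
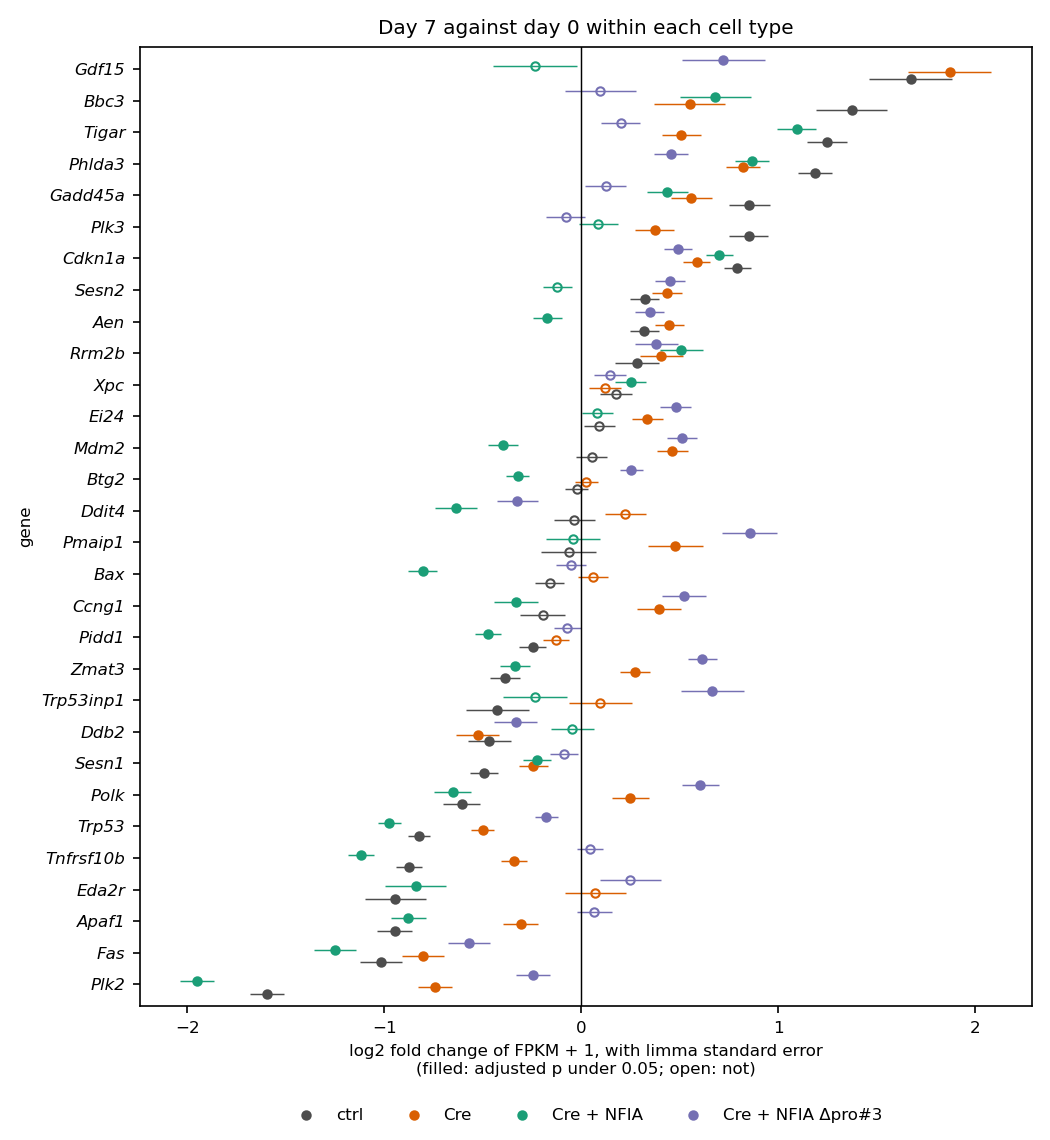
Log2 fold change of FPKM + 1 from day 0 to day 7 (horizontal axis, with limma standard errors) in each cell type for the 30 tested members (vertical axis), sorted by ctrl; filled points passed. Gdf15 rises in ctrl, libraries labelled Cre and Δpro#3, Plk2 falls most in Cre + NFIA and ctrl, and the Δpro#3 points lie closer to zero than those of ctrl for both Tigar and Plk2.

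Whether a difference between cell types itself changed with the day was tested by interaction. For libraries labelled Cre against ctrl 15 members passed (49.2% of all genes tested), 11 more positive at day 7 (29.7%) and 4 more negative (19.5%), which became 8 and 6 with ratio-based size factors. The largest were Eda2r at 1.01, Polk at 0.85, Plk2 at 0.85 and Zmat3 at 0.66, and Bbc3 at -0.82, Tigar at -0.74, Plk3 at -0.48 and Phlda3 at -0.36, the last lost with quantile normalization (limma adjusted p = 0.418). Mdm2 was at 0.41 (limma adjusted p = 0.00413) and Cdkn1a did not pass (-0.21, limma adjusted p = 0.0875). For Cre + NFIA against libraries labelled Cre 20 passed (48.9%), 2 more positive (18.8%) and 18 more negative (30.1%), which became 2 and 15 with ratio-based size factors. More positive genes made up 38.5% of all genes that passed there as deposited and 52.0% with that scaling. Gdf15 at -2.10, Plk2 at -1.20, Eda2r at -0.91 and Polk at -0.90 were the most negative, and Tigar at 0.59 and Ddb2 at 0.48 the positive ones. Mdm2 and Trp53 were at -0.86 and -0.47 (limma adjusted p = 1.81e-06 and 5.41e-05), and Cdkn1a at 0.11 (limma adjusted p = 0.352). For Δpro#3 against libraries labelled Cre 10 passed (18.2%), 5 more positive (7.79%) and 5 more negative (10.4%), which became 5 and 3 with ratio-based size factors and 7 and 3 with quantile normalization. Plk2 at 0.50, Tnfrsf10b at 0.39, Apaf1 at 0.37 and Zmat3 at 0.34 were the most positive, and Gdf15 at -1.15, Ddit4 at -0.55, Plk3 at -0.45 and Gadd45a at -0.43 the most negative. The calls of Apaf1, Zmat3, Plk3 and Gadd45a were each lost on leaving out any of at least 6 of the 12 libraries, and 5 members passed without Δpro#3 replicate 1 of day 0 or Cre replicate 2 of day 7. With only the groups compared in the model 6 passed. Trp53 was at 0.32 (limma adjusted p = 0.00751), and Mdm2 and Cdkn1a were at 0.05 and -0.10 (limma adjusted p = 0.814 and 0.555).

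Other genes of the pathway were counted from lists, with the share of all genes tested in parentheses. Of 18 further p53 targets, among them Thbs1 and Igfbp3, 17 were tested. At day 7 14 were higher (36.1%) and 1 lower (22.7%) in libraries labelled Cre against ctrl (median log2 fold change 0.55), and 2 higher (27.0%) and 13 lower (35.9%) in Cre + NFIA against libraries labelled Cre (-0.57). At day 0 3 were higher (14.7%) and 4 lower (12.9%) in Cre + NFIA against libraries labelled Cre. Of 16 tested regulators of p53, among them Mdm4, Atm and Chek2, 6 were higher (36.1%) and 2 lower (22.7%) in libraries labelled Cre against ctrl at day 7, a share of higher genes near that of all genes, and 2 higher (27.0%) and 7 lower (35.9%) in Cre + NFIA against libraries labelled Cre. Of 22 cell-cycle genes, which p53 and p21 are known to hold down, 14 were higher (14.7%) and 0 lower (12.9%) in Cre + NFIA against libraries labelled Cre at day 0. At day 7 4 were higher (27.0%) and 5 lower (35.9%) in that comparison, and 9 were higher (36.1%) and 3 lower (22.7%) in libraries labelled Cre against ctrl. Of 8 glucocorticoid-responsive genes 5 were higher and 3 lower at day 7 than at day 0 in ctrl (32.9% and 38.1%), libraries labelled Cre (30.0% and 21.6%) and Cre + NFIA (31.8% and 38.3%), and 4 were higher (36.1%) and 3 lower (22.7%) in libraries labelled Cre against ctrl at day 7. Of the 12 ATF4 genes 3 were higher and 6 lower in that same comparison, with the same shares of all genes.

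The members' levels ran with the adipocyte markers to different extents. Over the 24 libraries Pearson's r between a member's log2 value and the mean log2 value of the 12 adipocyte markers ranged from -0.95 for Fas and -0.94 for Trp53 to 0.92 for both Tigar and Phlda3. Over the 12 day 7 libraries alone it was -0.91 for Mdm2, -0.84 for Ccng1 and -0.92 for Plk2, and 0.90 for Tigar and 0.88 for Bbc3. For Cdkn1a it was 0.80 over the 24 libraries and 0.00 over the 12 of day 7. The libraries fall into groups that share cell type and day, so these values are descriptive and no test was made.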

How the data were processed

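RNA-seq was made from poly(A) RNA with a stranded library kit, in 24 libraries of 8 groups. The authors aligned reads with STAR 2.5.3a to mm9, counted uniquely aligned reads of the matching strand for each gene, and deposited FPKM values per library with each gene's length. The FPKM values came to whole reads for 100% of values within 0.02 of a read when multiplied by length and scaled, which gave totals of 7.73 to 14.62 M reads, so 3 reads correspond to 0.205 to 0.388 reads in each 1000000. That covers counting error only.

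Genes that reached 1 FPKM in 3 or more libraries were kept (12640 of 24825). Values were taken as log2(FPKM + 1), limma 3.58.1 (R 4.3.3) with a trended prior was applied, and p-values were adjusted over all genes kept (Benjamini-Hochberg). A fold change is on the log2(FPKM + 1) scale, which understates changes of low genes. Cell types were compared in a model of the 12 libraries sharing a day, and comparisons between days and the interactions used all 24. The study names a count-based tool, and limma was used because the deposited values are FPKM. The script was tested on simulated data. Replicate pairs differed by more than sampling noise.

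The members and lists were chosen with earlier results of these data known. The text accounts for all members, gives Trp53, Cdkn1a and Mdm2 in each comparison, and names up to 4 passing members with the largest change in each direction. Other members named were chosen for their role after values were seen. The lists were members by role, further p53 targets, p53 regulators, cell-cycle genes, ATF4 and glucocorticoid genes, and markers of 6 cell types. Alternatives were another pseudocount, filter, scaling, set of libraries, the replicate number as a block, no trend, a 3-fold threshold and limma voom on the recovered reads. Positions and sequences of sites came from NCBIM37 with GENCODE vM1, the build of the files, in which 29 of 31 members were matched by symbol. In the deposited tables, symbols of 26 genes appear as dates, none of them a member.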

Additional observations from a re-analysis of the deposited data

Results flagged for a closer look

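These 4 results stood out because a difference between cell types itself differed between day 0 and day 7 by at least 1 on the log2 scale, by limma's interaction test. Gdf15 for Cre + NFIA against libraries labelled Cre was at -2.10 (SE 0.300, limma adjusted p = 7.06e-06), with a difference of 2.05 at day 0, and the day 7 ranges of these cell types overlapped. Gdf15 for Δpro#3 against libraries labelled Cre was at -1.15 (limma adjusted p = 0.0108, or 0.0609 with only the groups compared in the model). Plk2 for Cre + NFIA against libraries labelled Cre was at -1.20 (SE 0.12, limma adjusted p = 9.18e-08), and all 3 Cre + NFIA libraries lay below all libraries labelled Cre at day 7, with overlapping ranges at day 0. Eda2r for libraries labelled Cre against ctrl was at 1.01 (SE 0.22, limma adjusted p = 0.000665), again with overlapping ranges at day 0 only.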

How the results depend on the processing

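Of the counts of members passing, recomputed under each alternative, 266 stayed within 1.5 times the reported count and 51 did not. The alternatives counted here include the 3-fold threshold. That is a stricter call on the same values and could only lower a count, so its cases do not show dependence on the processing. Values of single members kept their direction and side of the threshold in 2572 cases, lost the call in 184, gained it in 6 and reversed in 13.

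With a 3-fold threshold 1 member passed in Cre + NFIA against libraries labelled Cre and against ctrl at day 0, 2 from day 0 to day 7 in ctrl, 1 in libraries labelled Cre, 1 in Cre + NFIA and 1 in the interaction of Cre + NFIA against libraries labelled Cre. In the other 11 comparisons 0 did. The share of all genes at 3-fold was taken only for the day 7 comparisons between cell types, so the members counted here are not set against all genes. For libraries labelled Cre against ctrl at day 0 the reported 2 became 1 with no filter, with quantile normalization or without trend, and 0 with only the groups compared. For Δpro#3 against Cre + NFIA at day 0 the reported 3 became 1 with no filter, 5 with voom and 9 with only the groups compared. For Δpro#3 against libraries labelled Cre at day 7 the reported 6 became 11 with quantile normalization or voom, and in its interaction with day the reported 10 became 6 with no filter or only the groups compared. For Cre + NFIA against ctrl at day 7 the reported 8 became 5 with no filter. The cause was not tested.

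Leaving out 1 library gave 0 to 4 members for libraries labelled Cre against ctrl at day 0, and 23 to 24 at day 7. It gave 8 to 13 for Cre + NFIA against libraries labelled Cre at day 0 and 23 to 25 at day 7, and 13 to 18 and 3 to 6 for Cre + NFIA against ctrl. For Δpro#3 it gave 4 to 9 at day 0 and 3 to 6 at day 7 against libraries labelled Cre, 1 to 3 and 23 to 25 against Cre + NFIA, and 5 to 10 in the interaction.

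Quantile normalization reversed Cdkn1a in Δpro#3 against Cre + NFIA (-0.021 at day 0 and 0.085 at day 7) and in the interactions of libraries labelled Cre (0.093), Cre + NFIA (-0.080) and Δpro#3 (0.026), Trp53 in Cre + NFIA against ctrl at day 0 (-0.022) and Mdm2 from day 0 to day 7 in ctrl (-0.137). Leaving out 1 library gave Mdm2 from -0.037 to 0.149 from day 0 to day 7 in ctrl, with -0.00078 without day 7 replicate 1, and from -0.027 to 0.115 in the Δpro#3 interaction. At day 0 it gave Trp53 from -0.0018 to 0.068 and Cdkn1a from -0.0033 to 0.062 in Δpro#3 against Cre + NFIA, and Trp53 from -0.0044 to 0.085 in Cre + NFIA against ctrl. Apart from Cdkn1a in Δpro#3 against Cre + NFIA at day 7, none of these had passed.

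Libraries with the same replicate number shared no strong deviation. The mean correlation of same-numbered deviations ran from -0.159 to 0.056 over the comparisons, and single correlations from -0.274 to 0.201. Such values cannot show whether the replicates were paired by culture or infection. With the replicate block 25 members passed in libraries labelled Cre against ctrl at day 7, 25 in Cre + NFIA against libraries labelled Cre and 8 in Δpro#3 against libraries labelled Cre, and no count moved by over 1.5 times. Of the members tested, Pmaip1, Gdf15 and Rrm2b had the fewest reads in a single library, at 41, 48 and 59, each in a day 0 library labelled Cre. The 3 libraries a group limit every count.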
